A study of Mus musculus with 6 samples.

Results

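The nuclear-encoded subunits of the respiratory chain and of ATP synthase were followed in mouse liver tumours treated or not treated with a nanoparticle. Members were chosen by gene symbol in the deposited normalised table. The symbols taken were Nduf followed by a, b, c, s or v and a number, Sdha to Sdhd, every Uqcr gene, Cox4 to Cox8 followed by a letter, and every Atp5 gene, and the 5 matching symbols that hold "-ps" (pseudogenes) were left out. This gave 80 of the 55536 genes in the count table: 36 of complex I, 4 of complex II, 8 of complex III, 16 of complex IV and 16 of complex V. The tumours were of HCA-1, a line of mouse hepatocellular carcinoma, and grew in male C3H mice of 6 to 8 weeks after 1000000 cells had been put beneath the capsule of the liver. TSDP mice (replicates 1, 2 and 5) received into a vein a nanoparticle that carried DNIC, a nitric oxide donor, and sorafenib, a kinase inhibitor given in hepatocellular carcinoma, in 6 doses, the first 3 on days 10, 12 and 14 and the others on days 17, 20 and 23. Control mice (replicates 3, 4 and 5) are labelled untreated, and whether they were given an empty carrier is not said. The 6 libraries are of tumours taken on day 24 and are separate samples by title only. Both groups carry the same implanted line in a host with its own liver, vessels and immune cells. The comparison asks how the messenger RNA of these subunits differs between tumours with and without the treatment.

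Complexes I and II pass electrons from NADH and succinate to ubiquinone, complex III passes them on to cytochrome c, and complex IV hands them to oxygen. Complexes I, III and IV pump protons out of the mitochondrial matrix, and complex V, the ATP synthase, uses their return to make ATP. Most subunits are encoded in the nucleus and imported, while a small core is encoded by mitochondrial DNA. Hepatocytes are rich in mitochondria, and liver cancer cells are known for leaning more on glycolysis.

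Total counts were 36629665, 36586150 and 36376925 in TSDP 1, 2 and 5, and 32533852, 32130808 and 38953397 in Control 3, 4 and 5. The libraries differed in how much liver RNA they held. The summed level of 12 hepatocyte markers, albumin among them, was 31821, 59747 and 20093 CPM (counts per 1000000 after TMM scaling) in the TSDP libraries, against 106, 19929 and 3814 CPM in the Control libraries. All 12 were counted in every library and had positive log2 fold changes, and 8 did not overlap between the groups. The 5 B cell markers summed to between 13.1 and 62.6 CPM in TSDP and between 1.24 and 5.42 CPM in Control, the 4 Kupffer cell markers to between 74.2 and 222 CPM in TSDP and between 35.8 and 68.4 CPM in Control, and the 4 sinusoidal endothelial markers to between 89.5 and 256 CPM in TSDP and between 24.4 and 86.8 CPM in Control. The 5 T cell markers summed to between 55.5 and 57.0 CPM in TSDP and between 17.4 and 48.5 CPM in Control, and all markers of these 4 lists had positive log2 fold changes. So had the 4 endothelial markers, with sums between 197 and 316 CPM in TSDP and between 126 and 199.6 CPM in Control, and the 5 fibroblast markers, whose sums overlapped. The 5 macrophage markers were positive in 3 and negative in 2. Neutrophil markers went the other way, with 2 of 3 tested lower in TSDP at an unadjusted p under 0.05, a median of -1.48 and sums between 17.0 and 23.7 CPM in TSDP and between 15.8 and 38.6 CPM in Control. The keratins Krt8 and Krt18, which tumour cells of this kind express, were at 533, 518 and 620.4 CPM and at 604, 565 and 725 CPM in TSDP, against 431, 590.4 and 647 CPM and 507, 544 and 692 CPM in Control. The groups overlapped for both keratins. The fetal liver and tumour marker Afp was low throughout, between 4.24 and 9.20 CPM in TSDP and between 3.27 and 3.68 CPM in Control. Red cell genes reached 649 CPM in Control 3 and at most 52.6 CPM in the other libraries. The part that these cells and markers play in the values below was not tested. For hepatocytes, values with and without their marker score are given. Their summed markers were higher in every TSDP library than in every Control library, so hepatocyte RNA and treatment cannot be told apart.

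Most members stood at higher levels in TSDP tumours than in Control tumours, and 0 passed the edgeR test over all genes. The members together summed to 5937, 5864 and 5673 CPM in TSDP 1, 2 and 5, against 4702, 4966 and 4690.3 CPM in Control 3, 4 and 5. All TSDP libraries lay above all Control libraries, and the ratio of the means was 1.22. As a share of raw counts the members took 0.592%, 0.555% and 0.559% in TSDP and 0.468%, 0.504% and 0.484% in Control. In bulk tissue, fewer cells of a type and less RNA per cell cannot be told apart.

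Of the 80 members, 79 had enough counts to be tested. The exception was Cox8b, a heart and muscle form, with 0, 0 and 1 counts in TSDP and 0 in each Control library. With edgeR's quasi-likelihood test and Benjamini-Hochberg adjustment over 17423 genes at 0.05, 0 members were called higher and 0 lower in TSDP, as were 0% of all genes in each direction, and the smallest adjusted p of any gene was 0.326. At an unadjusted p under 0.05, 47 members were higher and 0 lower, where 8.60% of all tested genes were higher and 4.75% lower. In 55 members every TSDP value lay above every Control value and in 0 below, while over all tested genes this held for 13.0% and 8.76%. Positive log2 fold changes (TSDP over Control) were found in 72 of 79 members, against 47.3% of all tested genes. The median over members was 0.33, and over all tested genes -0.02. limma-voom also called 0 members and had 47 at an unadjusted p under 0.05. With edgeR this number was 34 with upper-quartile factors, 34 with total counts and 35 without the filter on low counts. The median over members was 0.26 under both of these scalings. DESeq2, the other count tool, called 7 members higher at an adjusted p under 0.05, where it called 2.98% of all genes higher. These were Uqcr11 (DESeq2 adjusted p = 0.0159), Ndufs6 (0.0169), Ndufa4 (0.0169), Uqcrb (0.0201), Sdha (0.0223), Atp5k (0.0367) and Cox7b (0.0449), which come from all 5 complexes. When 1 library was left out, the members at an unadjusted p under 0.05 numbered between 19 and 47, with 19 without Control 5, 22 without Control 3, 24 without TSDP 1 and 27 without TSDP 2. Reads could be shared with other genes in 28 members, whose exons overlap those of another annotated gene, and in members with pseudogene copies.

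**Figure D1:**
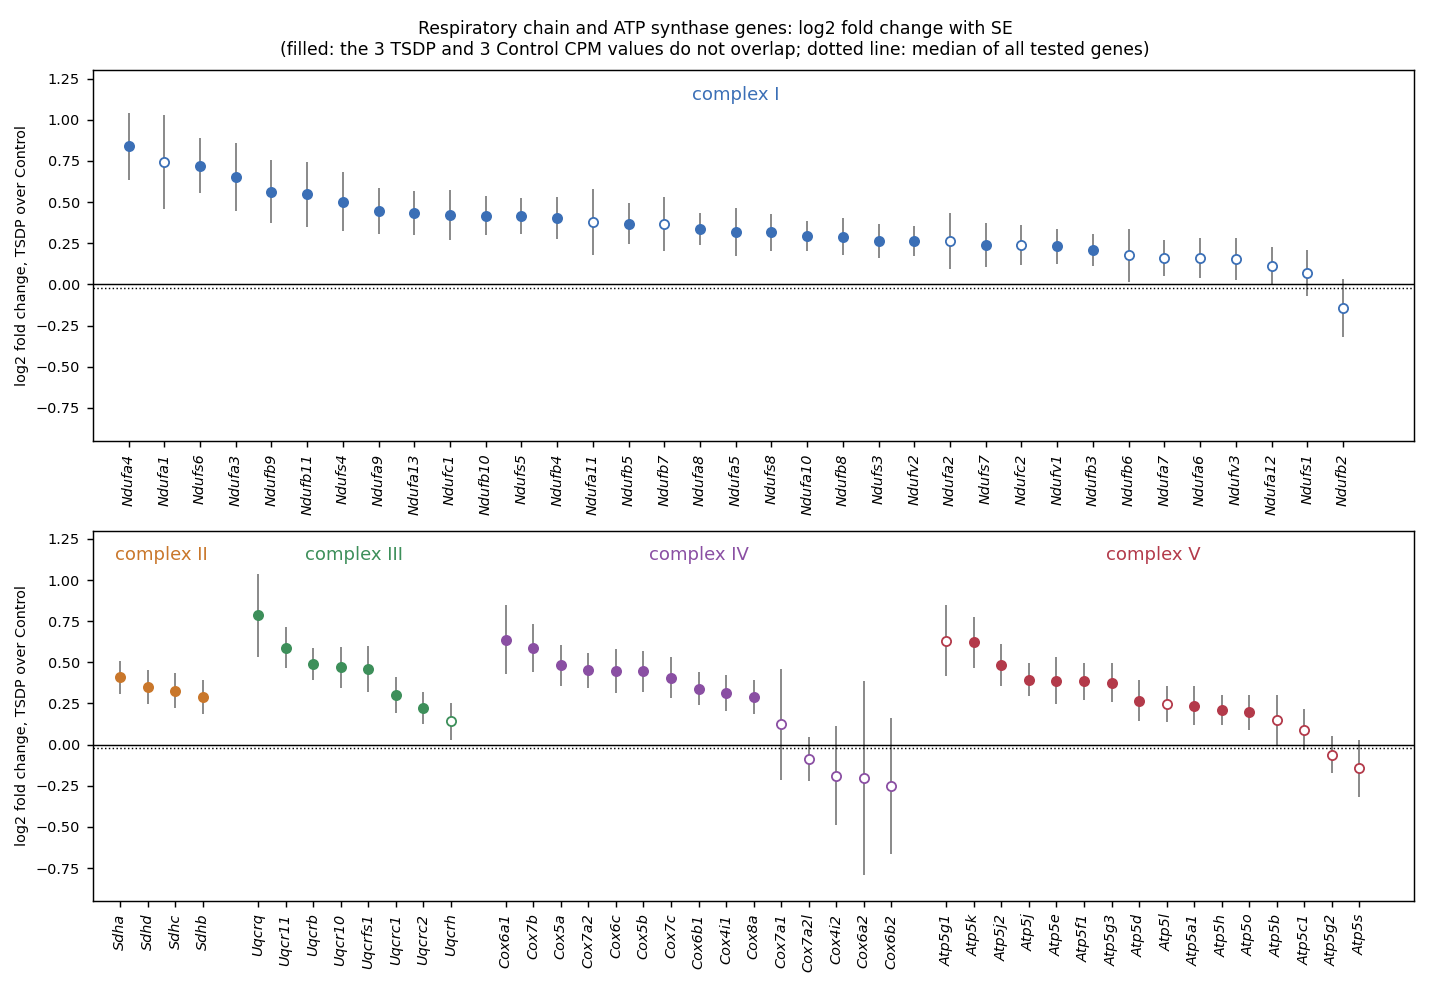
Log2 fold change of 78 of the 79 tested members (TSDP over Control, y axis) with its SE, by complex and in falling order. Filled points are members whose 3 TSDP and 3 Control values do not overlap (54 of the 78), open points the rest, and the dotted line is the median of all tested genes at -0.02; 71 points lie above 0.

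Promoter windows are shown for the members DESeq2 called, since these were the members that any of the tools called, and 6 of the 7 had an entry. The windows run from 250 bases before to 50 bases after the start in RefSeq's GRCm38.p6, and 66 of the 80 members matched by gene ID, with 71 windows. They lie at chr13:73328433-73328732 (minus strand) for Ndufs6, chr6:11907401-11907700 (minus strand) for Ndufa4, chr13:74350191-74350490 (minus strand) for Sdha, chr10:80406772-80407071 (minus strand) for Uqcr11, chrX:106015450-106015749 (plus strand) for Cox7b and chr5:108434350-108434649 (minus strand) for Atp5k. Capitals mark matches, on either strand, to 4 motifs known from respiratory genes: GCGCNNGCG for NRF1, CCGGAAG for ETS factors such as GABP, AAGATGGCG for YY1 and CAAGGTCA for the oestrogen-related receptors.
Ndufs6: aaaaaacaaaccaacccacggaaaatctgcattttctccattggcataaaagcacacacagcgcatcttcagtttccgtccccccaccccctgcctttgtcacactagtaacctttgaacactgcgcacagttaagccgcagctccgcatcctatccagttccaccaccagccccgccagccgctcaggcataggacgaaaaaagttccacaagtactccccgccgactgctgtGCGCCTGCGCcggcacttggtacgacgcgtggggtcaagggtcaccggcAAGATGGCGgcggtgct
Ndufa4: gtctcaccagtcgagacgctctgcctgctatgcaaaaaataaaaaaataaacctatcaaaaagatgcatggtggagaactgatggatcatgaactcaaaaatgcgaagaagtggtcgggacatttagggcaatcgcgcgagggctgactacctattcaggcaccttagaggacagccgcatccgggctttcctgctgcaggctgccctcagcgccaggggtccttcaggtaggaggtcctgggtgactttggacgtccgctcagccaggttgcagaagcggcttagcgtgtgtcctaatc
Sdha: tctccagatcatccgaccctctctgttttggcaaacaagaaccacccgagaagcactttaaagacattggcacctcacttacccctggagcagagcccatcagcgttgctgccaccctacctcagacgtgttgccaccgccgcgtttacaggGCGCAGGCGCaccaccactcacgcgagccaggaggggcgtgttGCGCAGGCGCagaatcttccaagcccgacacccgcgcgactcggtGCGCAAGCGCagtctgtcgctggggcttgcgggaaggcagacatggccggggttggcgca
Uqcr11: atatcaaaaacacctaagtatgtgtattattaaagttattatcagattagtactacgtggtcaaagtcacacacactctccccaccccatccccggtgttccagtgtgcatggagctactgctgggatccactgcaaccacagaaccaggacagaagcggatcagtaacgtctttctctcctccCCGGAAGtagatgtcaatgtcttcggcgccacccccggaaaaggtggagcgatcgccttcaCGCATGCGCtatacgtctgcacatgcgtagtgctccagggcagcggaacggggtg
Cox7b: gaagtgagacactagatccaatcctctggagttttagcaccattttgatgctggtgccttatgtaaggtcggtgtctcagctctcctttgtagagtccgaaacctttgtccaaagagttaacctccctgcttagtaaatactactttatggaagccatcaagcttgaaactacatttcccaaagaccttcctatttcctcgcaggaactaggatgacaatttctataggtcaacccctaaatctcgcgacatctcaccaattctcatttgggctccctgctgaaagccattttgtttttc
Atp5k: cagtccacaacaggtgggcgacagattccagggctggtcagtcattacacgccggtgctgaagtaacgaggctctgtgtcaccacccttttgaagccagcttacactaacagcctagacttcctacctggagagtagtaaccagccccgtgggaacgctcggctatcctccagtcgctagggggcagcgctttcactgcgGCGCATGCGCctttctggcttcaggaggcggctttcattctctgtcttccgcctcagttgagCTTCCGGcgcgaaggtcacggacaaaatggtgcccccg
Sdha has 3 stretches with the NRF1 letters, each of which matches on both strands. Ndufs6 has such a stretch and a YY1 match, while Uqcr11 and Atp5k each have an NRF1 stretch and an ETS match, which in Atp5k lies on the other strand. No match to these letters was found in the windows of Ndufa4 and Cox7b.

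Over the 71 windows, 27 held the NRF1 motif (38.03%), against 21.7% of the 14514 windows of tested genes and 12.1% of all 32851 windows in the table. The ETS letters were in 22.5% of member windows, 15.5% of tested-gene windows and 8.86% of all. For YY1 the shares were 9.86%, 2.61% and 1.40%, and for the oestrogen-related receptor motif 5.63%, 1.07% and 1.56%. The median GC content was 57.3% in member windows, 60.0% in those of tested genes and 52.7% in all. Motifs can overlap, and 57.7% of member windows held at least 1 of them. The 39 tested members with a match had a median log2 fold change of 0.34 and the 26 without also had 0.34. Among the factors named for the motifs, Nrf1 messenger RNA was at 25.8, 23.2 and 26.1 CPM in TSDP, against 32.4, 29.0 and 30.3 CPM in Control (log2 fold change -0.29 ± 0.11 SE, edgeR adjusted p = 0.356), with every TSDP value below every Control value, and with the hepatocyte markers as a covariate the log2 fold change was -0.18.

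Complex I takes electrons from NADH through 7 conserved core subunits, around which many accessory subunits are built. Of its 36 members, 35 had positive log2 fold changes, 24 did not overlap between the groups (all higher in TSDP) and 20 had an unadjusted p under 0.05, with a median of 0.32. The summed level was 1506, 1526 and 1389.8 CPM in TSDP 1, 2 and 5, against 1132, 1239 and 1170.5 CPM in Control 3, 4 and 5. Ndufa4 (ENSMUSG00000029632), named for complex I and known today as a subunit of complex IV, had 101, 104 and 66.2 CPM in TSDP, against 47.2, 58.0 and 46.6 CPM in Control. All TSDP values lay above all Control values, with TSDP 5 closest to Control 4. Its log2 fold change of 0.84 ± 0.20 (SE, edgeR quasi-likelihood adjusted p = 0.326) was the highest among the members. The unadjusted p with the hepatocyte markers as a covariate was 0.0492, at a log2 fold change of 0.64. Ndufs6 (ENSMUSG00000021606), an accessory subunit that binds zinc, had 22.8, 27.8 and 20.8 CPM in TSDP, against 13.5, 16.6 and 13.2 CPM in Control. The groups did not overlap, and the log2 fold change was 0.72 ± 0.16 (SE, edgeR adjusted p = 0.326).

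For 9 further accessory subunits of complex I, named here because of their values, log2 fold changes ran from 0.29 to 0.74. Ndufa3 averaged 17.6 ± 3.83 CPM in TSDP and 11.2 ± 1.70 CPM in Control (SD, n = 3 each), and its log2 fold change was 0.65. The subunits Ndufb10, Ndufs5 and Ndufb4 had log2 fold changes of 0.42, 0.42 and 0.40, and Ndufa9, which holds a nucleotide-binding fold, had 0.45. Ndufa13, also studied as the cell-death gene GRIM-19, averaged 42.1 ± 2.34 CPM in TSDP and 31.2 ± 4.42 CPM in Control, a log2 fold change of 0.43. Ndufa8 and Ndufa10 were at 0.34 and 0.29. These 8 subunits were named for an unadjusted edgeR p under 0.05 and no overlap, so their lack of overlap was set by that choice. Ndufa1, chosen here after its values were seen, had a log2 fold change of 0.74 but overlapped, with 17.0, 22.8 and 11.9 CPM in TSDP and 8.43, 12.9 and 9.50 CPM in Control. TSDP 5 lay below Control 4 in that gene.

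The 7 core subunits, which carry the flavin and the iron-sulphur clusters, had a median of 0.24, and 6 of 7 did not overlap. The 28 accessory subunits other than Ndufa4 had a median of 0.37, and 17 did not overlap (60.7%, against 85.7% of the core). Both subgroups were formed after the values were seen, and their difference was not tested. With the hepatocyte markers as a covariate, the log2 fold changes of both subgroups lay closer together. At the low end of complex I was Ndufb2, with 6.16, 6.42 and 7.06 CPM in TSDP and 8.12, 6.16 and 7.38 CPM in Control. Its log2 fold change was -0.14 ± 0.18 (SE, edgeR adjusted p = 0.741), below its own error in size, and turned to 0.08 with the hepatocyte markers as a covariate. Ndufb2 shares exon bases with 3 other annotated genes, 1 of them on its own strand, so its reads are less certain.

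**Figure D2:**
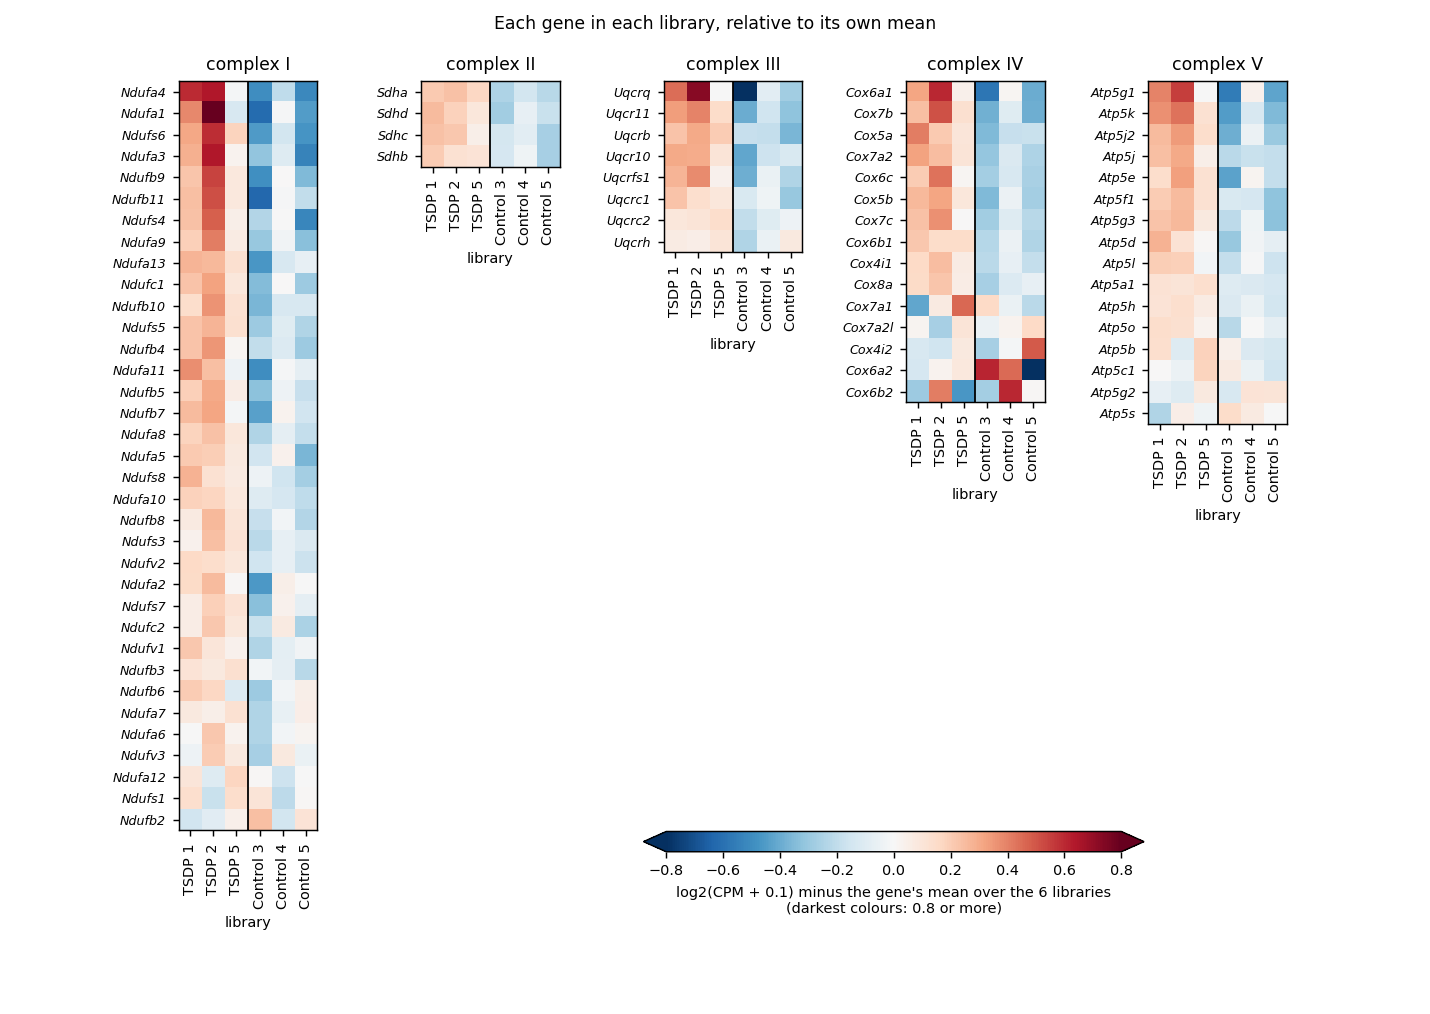
Level of 78 tested members in each library as log2(CPM + 0.1) minus its mean over the 6 libraries (colour), TSDP libraries left of the line and Control libraries right of it. Most rows are red in TSDP and blue in Control, with TSDP 2 reddest in complex I and the exceptions gathered at the foot of complexes IV and V.

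Complex II, succinate dehydrogenase, works in both the citrate cycle and the respiratory chain and has no subunit encoded by mitochondrial DNA. All 4 members were higher in every TSDP library than in every Control library, all had an unadjusted p under 0.05, and their median log2 fold change was 0.34. The catalytic flavoprotein Sdha (ENSMUSG00000021577) had 208, 213 and 203 CPM in TSDP, against 152, 163 and 155 CPM in Control, so the gap between the groups was wider than the spread within either. Its log2 fold change was 0.41 ± 0.10 (SE, edgeR adjusted p = 0.326). Sdhb, the iron-sulphur subunit, had 74.1, 70.2 and 69.6 CPM in TSDP, against 58.6, 63.0 and 53.5 CPM in Control, a log2 fold change of 0.29 ± 0.10. The membrane anchors that bind ubiquinone followed. Sdhc had 98.0, 96.8 and 86.1 CPM in TSDP, against 75.6, 78.6 and 69.5 CPM in Control, and a log2 fold change of 0.33 ± 0.11. Sdhd had 89.4, 85.6 and 80.0 CPM in TSDP, against 61.9, 71.7 and 66.3 CPM in Control, and a log2 fold change of 0.35 ± 0.10. The summed level of complex II was 470.0, 465 and 438 CPM in TSDP and 348, 376 and 344 CPM in Control.

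Complex III passes electrons from ubiquinol to cytochrome c through the Rieske protein and cytochromes b and c1. All 8 members had positive log2 fold changes, 7 did not overlap and 6 had an unadjusted p under 0.05. Its median of 0.46 was the highest of the 5 complexes and was 0.29 with the hepatocyte markers as a covariate. The summed level was 573, 586 and 539 CPM in TSDP, against 415, 470.3 and 453 CPM in Control. Uqcrb (ENSMUSG00000021520), a small subunit near the ubiquinone site, had 58.7, 61.7 and 57.7 CPM in TSDP, against 44.1, 43.9 and 38.8 CPM in Control. The TSDP values were close to each other and well above the Control values, and the log2 fold change was 0.49 ± 0.10 (SE), the smallest unadjusted p of any member at 0.00208 (edgeR adjusted p = 0.326). With the hepatocyte markers as a covariate the log2 fold change was 0.51 and the unadjusted p 0.0133. Uqcr11 (ENSMUSG00000020163), another small subunit, had 31.7, 33.1 and 27.8 CPM in TSDP, against 19.0, 22.4 and 20.1 CPM in Control, and its log2 fold change was 0.59 ± 0.12 (edgeR adjusted p = 0.326).

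Uqcrq, which also contacts ubiquinone, had the largest log2 fold change of complex III at 0.79 ± 0.25, with 44.3, 53.9 and 32.4 CPM in TSDP and 18.5, 30.6 and 26.7 CPM in Control. TSDP 5 was only just above Control 4, and with the hepatocyte markers as a covariate the log2 fold change was 0.31, below that of Uqcrb. Uqcr10 and the Rieske protein Uqcrfs1 had log2 fold changes of 0.47 ± 0.13 and 0.46 ± 0.14, both without overlap. Uqcrc2, a core protein and the member of complex III with the highest mean CPM, had 117, 117 and 121 CPM in TSDP, against 95.6, 102 and 106 CPM in Control, a log2 fold change of 0.22 ± 0.10. Uqcrh, the hinge protein that docks cytochrome c1, was the exception. It had 112, 112 and 115 CPM in TSDP and 90.8, 104 and 113 CPM in Control, and its log2 fold change was 0.14 ± 0.11 (edgeR adjusted p = 0.605).

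Complex IV, cytochrome c oxidase, has several nuclear subunits that occur in a general form and in forms typical of muscle, heart, lung or testis. Of its 16 members 15 were tested, of which 11 had positive and 4 negative log2 fold changes, 10 did not overlap and 10 had an unadjusted p under 0.05, with a median of 0.34. The forms were grouped after the values were seen. In the 10 general forms the log2 fold changes ran from 0.29 to 0.64, all 10 did not overlap between the groups and all 10 had an unadjusted p under 0.05. These were summed to 739, 785 and 664 CPM in TSDP, against 515, 596 and 536 CPM in Control. Cox7b (ENSMUSG00000031231), a small subunit, had 57.4, 69.1 and 53.0 CPM in TSDP, against 37.2, 45.4 and 37.0 CPM in Control, with 0.59 ± 0.15 (SE) as log2 fold change (edgeR adjusted p = 0.326). Cox6a1 had the largest log2 fold change of the complex at 0.64 ± 0.21, but its groups nearly met, at 43.6 CPM in TSDP 5 against 42.8 CPM in Control 4. With the hepatocyte markers as a covariate Cox6a1 was at 0.28, below Cox7b at 0.41. Cox5a, which with Cox5b is among the subunits closest to the catalytic core, had 39.8, 34.5 and 31.97 CPM in TSDP, against 23.4, 26.3 and 26.4 CPM in Control, a log2 fold change of 0.48 ± 0.12. Cox7a2, Cox6c, Cox5b and Cox7c were at 0.45, 0.45, 0.44 and 0.41, and Cox6b1, Cox4i1 and Cox8a at 0.34, 0.31 and 0.29. Cox4i1, the subunit through which ATP slows the enzyme, was the most abundant of the complex by CPM, with 169.9, 181 and 159 CPM in TSDP and 131, 146 and 134 CPM in Control.

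The other forms of complex IV subunits were near the floor of detection, and their difference from the general forms was not tested. Cox4i2, the form of lung that low oxygen induces, was at 1.10, 1.07 and 1.28 CPM in TSDP and 0.988, 1.20 and 1.74 CPM in Control. The muscle and heart forms Cox6a2 and Cox7a1 stayed at or below 0.335 and 1.09 CPM in TSDP and 0.525 and 0.865 CPM in Control, and the testis form Cox6b2 at or below 0.954 CPM in TSDP and 1.10 CPM in Control. Their log2 fold changes lay between -0.25 and 0.12 with errors of 0.30 to 0.59, and each of them changed sign when 1 library was left out. At such counts, between 4 and 70 reads per library, a difference of the size seen in the general forms was not detectable. Muscle and heart markers were at or near 0 as well, with summed levels of at most 1.73 CPM in TSDP and 1.45 CPM in Control for skeletal muscle. Cox7a2l, which helps to join complexes III and IV, is well expressed and had 129, 105 and 136 CPM in TSDP and 122, 129 and 141 CPM in Control. Its groups overlapped, and the log2 fold change was -0.09 ± 0.13 (edgeR adjusted p = 0.794).

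Complex V, the ATP synthase, consists of a catalytic F1 head, a rotating ring of c subunits and a peripheral stalk. Of its 16 members, 14 had positive log2 fold changes, 10 did not overlap and 7 had an unadjusted p under 0.05, with a median of 0.26. Its summed level was 2518, 2393 and 2503 CPM in TSDP and 2166, 2152 and 2042 CPM in Control, a ratio of means of 1.17, against 1.25 to 1.29 in complexes I to IV. Atp5k (ENSMUSG00000050856), the e subunit in the membrane that helps ATP synthase pair up, had 18.7, 19.6 and 15.8 CPM in TSDP, against 10.6, 13.2 and 11.3 CPM in Control. All TSDP values were above all Control values, and the log2 fold change was 0.62 ± 0.15 (SE, edgeR adjusted p = 0.326). Atp5j2, the neighbouring f subunit, had 63.5, 67.2 and 58.6 CPM in TSDP, against 40.5, 51.5 and 43.3 CPM in Control, a log2 fold change of 0.48 ± 0.13. In the peripheral stalk, Atp5j (F6) and Atp5f1 (b) had log2 fold changes of 0.40 ± 0.10 and 0.38 ± 0.11, and all 4 stalk members did not overlap. With the hepatocyte markers as a covariate Atp5f1 kept a log2 fold change of 0.40 and an unadjusted p of 0.0432.

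The c subunit is encoded by 3 genes for an identical mature protein. Atp5g1 had 37.2, 41.6 and 28.2 CPM in TSDP and 19.2, 28.9 and 21.1 CPM in Control, a log2 fold change of 0.63 ± 0.21, with TSDP 5 just below Control 4. Atp5g3 had 133, 136 and 120 CPM in TSDP, against 98.0, 111 and 90.4 CPM in Control, a log2 fold change of 0.38 ± 0.12 without overlap. Atp5g2 had 69.2, 67.4 and 76.6 CPM in TSDP and 66.3, 78.3 and 77.9 CPM in Control, a log2 fold change of -0.06 ± 0.11. With the hepatocyte markers as a covariate Atp5g1 was at 0.28, Atp5g3 at 0.29 and Atp5g2 at -0.18. Differences between these 3 genes were not tested.

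The 5 subunits of the F1 head, grouped like the stalk after the values were seen, had a median of 0.24. Atp5b, the catalytic beta subunit and the most abundant member, had 868, 736 and 896 CPM in TSDP and 811, 728 and 718 CPM in Control, so the groups overlapped (log2 fold change 0.15 ± 0.15, edgeR adjusted p = 0.688). Its partner Atp5a1, the alpha subunit, had 525, 519 and 531 CPM in TSDP, against 449.9, 447 and 441 CPM in Control. These groups were tight and did not overlap, at a log2 fold change of 0.24 ± 0.12 (edgeR adjusted p = 0.433). Atp5s, a coupling factor now named Dmac2l, had the lowest log2 fold change of the complex, with 4.88, 5.98 and 5.64 CPM in TSDP and 6.39, 6.07 and 5.77 CPM in Control (log2 fold change -0.14 ± 0.17). Atpif1, the inhibitor that blocks the enzyme from running backwards, lies outside the name rule and was at 39.2, 30.4 and 38.3 CPM in TSDP and 42.1, 33.3 and 33.7 CPM in Control. Its log2 fold change was -0.02 ± 0.15 and changed sign under 3 alternatives.

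Levels were compared between genes per kilobase of the annotated principal transcript. On this scale Atp5b was the highest member, at 435 CPM per kilobase in TSDP and 393 in Control,. In TSDP it was followed by Cox4i1, Atp5a1 and Uqcrh at 222, 213 and 207 CPM per kilobase, and in Control by Uqcrh, Atp5a1 and Cox4i1 at 188, 181 and 179 CPM per kilobase. Atp5g3 was at 179 in TSDP and 138 in Control.

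Values of the members also differed between the libraries of a group. TSDP 2, which had the most hepatocyte marker RNA, was the highest library in 42 of the 79 tested members (53.2%), and in 31.3% of all tested genes. Control 3, which had the least, was the lowest in 45 members (57.0%), and in 26.6% of all tested genes. Control 5, which had the next least, was the lowest in 26 members (32.9%), and in 13.4% of all tested genes. The members' median coefficient of variation within a group was 8.32% in TSDP and 9.61% in Control, and over all tested genes it was 17.3% in TSDP and 17.4% in Control. These values were not matched for level, and the tested genes include many at lower counts than most members. Without Control 3, 57 members did not overlap between the groups, where 15.7% of all tested genes were higher in TSDP without overlap. Leaving out a library can only keep or raise such counts. With the mean log2 CPM of the hepatocyte markers as a covariate, 6 members were higher at an unadjusted p under 0.05 (2.31% of all tested genes were), namely Uqcrb, Uqcr11, Atp5f1, Sdha, Ndufs6 and Ndufa4. The median log2 fold change over the members was then 0.25, and 70 of 79 stayed positive. Since the summed markers did not overlap between the groups, this fit cannot separate hepatocyte RNA from the treatment. By complex the medians with this covariate were 0.23, 0.28, 0.29, 0.27 and 0.23 for I to V. Besides the members given with this value above, it moved some named ones by over 1.5 times. Ndufa1 was at 0.33, Ndufa9 at 0.28, Ndufb10 at 0.25 and Ndufa13 at 0.21 in complex I, and Sdhd at 0.23 in complex II. In complex III Uqcr10 was at 0.29, Uqcrfs1 at 0.25 and Uqcrh at 0.01. Cox5b and Cox8a of complex IV were at 0.27 and 0.17, and in complex V Atp5j2 was at 0.29 and Atp5b, higher than without the covariate, at 0.28.

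**Figure D3:**
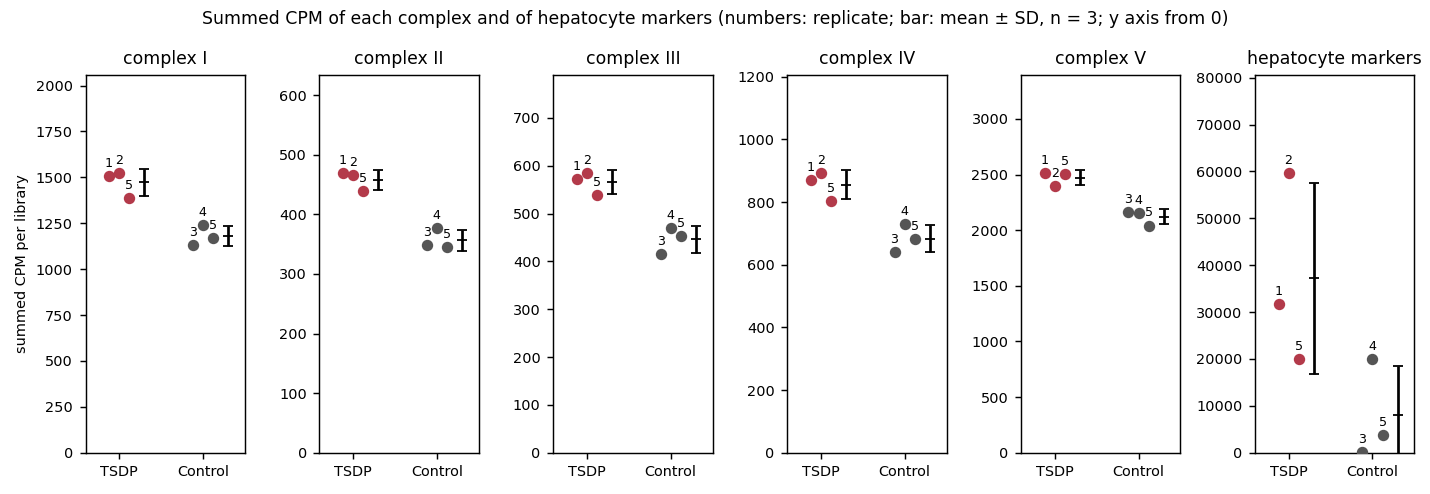
Summed CPM (y axis, from 0) of the members of each complex and of the 12 hepatocyte markers, in TSDP libraries (left, red) and Control libraries (right, grey), numbered by replicate; bars are mean ± SD over 3 libraries. Every TSDP library lies above every Control library in all 5 complexes, and in the hepatocyte panel the lowest TSDP library, at 20093 CPM, is just above the highest Control library, at 19929 CPM.

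The 13 subunits encoded by mitochondrial DNA, which join the nuclear ones in complexes I, III, IV and V, all had positive log2 fold changes, with a median of 0.61. Of these, 11 did not overlap between the groups and 7 had an unadjusted p under 0.05. They summed to 29291, 41939 and 31042 CPM in TSDP, against 26566, 22819 and 22174 CPM in Control. Reads of these genes can be shared with nuclear copies of mitochondrial DNA. mt-Atp6, a subunit of the proton channel of ATP synthase, had 64.3, 90.8 and 70.3 CPM in TSDP, against 54.9, 50.02 and 43.2 CPM in Control (log2 fold change 0.61 ± 0.17 SE, edgeR adjusted p = 0.326). Respiratory chain genes with other names were in part similar. Of 9 such genes, 7 had positive log2 fold changes and 6 of these were higher without overlap. Cycs, which encodes cytochrome c, had 101, 91.1 and 94.4 CPM in TSDP, against 72.2, 59.8 and 77.8 CPM in Control, a log2 fold change of 0.45 ± 0.13. The other 2 were lower without overlap, Higd1a at a log2 fold change of -0.34 ± 0.16 and Ndufa4l2, the relative of Ndufa4 that low oxygen induces. Ndufa4l2 had 4.27, 17.1 and 14.6 CPM in TSDP, against 24.1, 34.5 and 21.9 CPM in Control. Its log2 fold change was -1.16 ± 0.50 (edgeR adjusted p = 0.384). TSDP 1 was the lowest library, and without it the log2 fold change was -0.76.

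For the assembly factors the medians were 0.22 over 16 factors of complex I, 0.53 over 4 of complex II, 0.05 over 6 of complex III, 0.18 over 18 of complex IV and 0.17 over 4 of complex V. edgeR called 0 of them, those higher at an unadjusted p under 0.05 numbered 4, 2, 0, 2 and 1, and the numbers higher without overlap were 6, 3, 1, 7 and 1. Over all tested genes these shares were 8.60% and 13.0%. The complex III factors, at 1 of 6 without overlap, and the complex IV factors, at 2 of 18 by unadjusted p, were near them. By the smallest p in each list, Ecsit had a log2 fold change of 0.56 ± 0.15, Sdhaf4 0.61 ± 0.17, Bcs1l 0.17 ± 0.16, Cox19 0.88 ± 0.26 (0.49 with the hepatocyte markers as a covariate) and Tmem70 0.37 ± 0.12. Ecsit takes part in building complex I, Sdhaf4 in maturing Sdha, and Bcs1l places the Rieske protein in complex III. Cox19 serves the copper supply of complex IV, and Tmem70 the c ring of ATP synthase. The 74 tested mitochondrial ribosomal proteins, which translate the mitochondrially encoded subunits, had a median of 0.19, with 65 positive and 33 higher without overlap. Among them Mrpl16 had a log2 fold change of 0.47 ± 0.11.

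Other mitochondrial genes were closer to the median of all genes. The citrate cycle and pyruvate dehydrogenase list had a median of 0.15 with 6 of 17 higher without overlap. In it Fh1, fumarate hydratase, which takes the product of complex II, had 78.9, 81.8 and 69.1 CPM in TSDP, against 49.6, 54.7 and 44.7 CPM in Control (log2 fold change 0.62 ± 0.12 SE, edgeR adjusted p = 0.326). Citrate synthase (Cs), often used as a measure of mitochondrial content, had 268, 217 and 295 CPM in TSDP and 288, 235 and 253 CPM in Control. Its groups overlapped, and its log2 fold change was 0.01 ± 0.16. That value turned negative with upper-quartile or total-count scaling, and ran from -0.10 to 0.22 over all alternatives. Import, carrier and chaperone genes had a median of 0.04 and 2 of 15 higher without overlap (13.3%), about the 13.0% of all tested genes, with the ADP/ATP carrier Slc25a5 at 0.44 ± 0.13. Fusion and fission genes had a median of -0.04 with 0 of 6 without overlap, and the fission receptor Mff was at -0.19 ± 0.12 (-0.02 with the hepatocyte markers as a covariate). Regulators of respiratory genes had a median of -0.03 over 15 tested. Ppargc1a, the coactivator PGC-1alpha, was at 8.08, 9.71 and 9.46 CPM in TSDP and 11.5, 15.3 and 7.85 CPM in Control. Esrra and Tfam, the oestrogen-related receptor alpha and the mitochondrial transcription factor, had log2 fold changes of 0.08 ± 0.14 and 0.17 ± 0.10, and Gabpb2, a partner of the ETS factor GABPA, had -0.43 ± 0.16, which was -0.13 with the hepatocyte markers as a covariate.

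Genes by which low oxygen is known to switch respiration, a list that shares Cox4i2, Ndufa4l2 and Higd1a with the groups above, had a median of -0.35, and 5 of 8 were lower in TSDP without overlap, where 8.76% of all tested genes were. Bnip3, which marks mitochondria for removal, had 46.3, 105 and 110.1 CPM in TSDP, against 175, 145 and 151 CPM in Control (log2 fold change -0.85 ± 0.33 SE, edgeR adjusted p = 0.365). Without TSDP 1, the lowest library, it was -0.54. Cytosolic ribosomal proteins had a median of -0.19, and 74 of 76 were negative. Only 1 was lower without overlap, below the 8.76% of all tested genes. At an unadjusted edgeR p under 0.05, 0 were lower, where 4.75% of all tested genes were. Rps10 in this list had a log2 fold change of -0.35 ± 0.21.

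**Figure D4:**
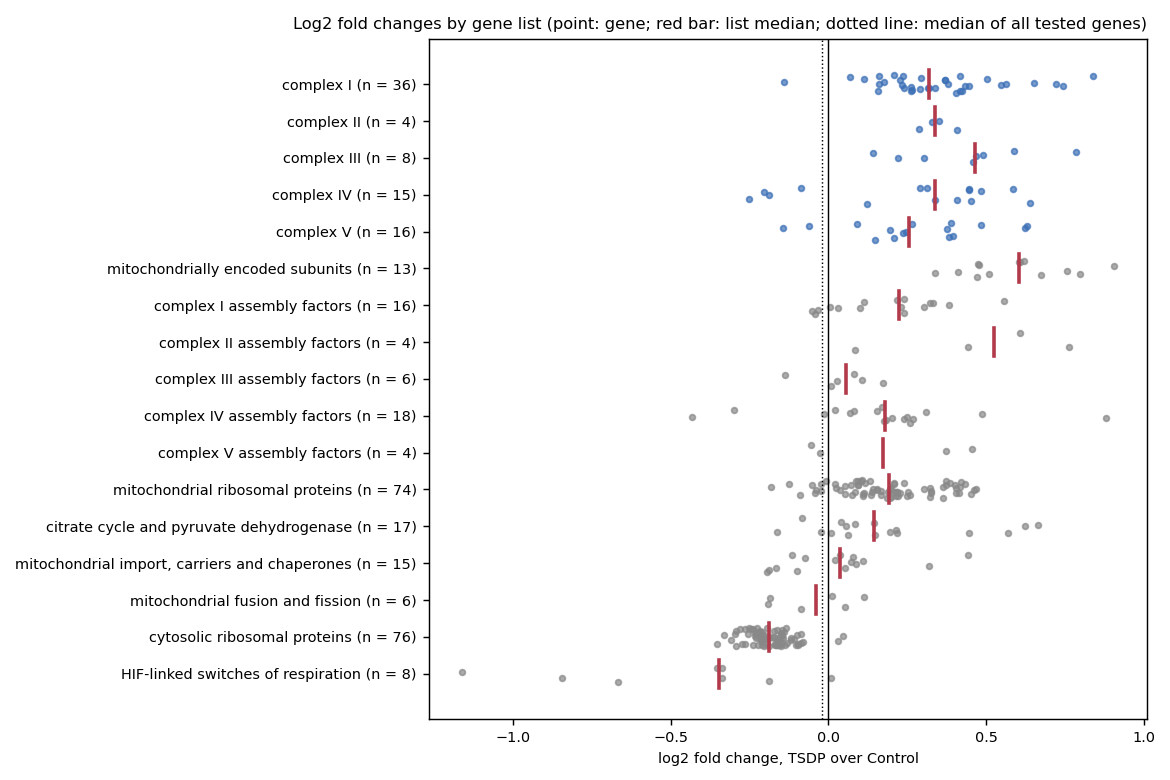
Log2 fold change (TSDP over Control, x axis) of each tested gene by list, complexes I to V in blue and other lists in grey; red bars are list medians and the dotted line the median of all tested genes at -0.02. Medians run from 0.61 in the mitochondrially encoded subunits to -0.35 in the genes by which low oxygen switches respiration.

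Without the hepatocyte covariate, short members had higher log2 fold changes than long ones. The median was 0.45 in the 21 members with a coding length under 300 bases, 0.35 in 37 from 300 to 600, 0.28 in 12 from 600 to 1200 and 0.23 in 9 of 1200 or more. With the hepatocyte markers as a covariate, the log2 fold changes of the shortest and longest members lay closer together. Over all tested genes with a coding length the same steps had medians of 0.12, 0.06, 0.07 and -0.06, and the members lay above them at every step. Across the 79 members Pearson's r between log2 coding length and log2 fold change was -0.26, and across 14399 tested genes -0.10. These points share the same 6 libraries, so r is given as a description. The part that transcript length plays in the differences was not tested.

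**Figure D5:**
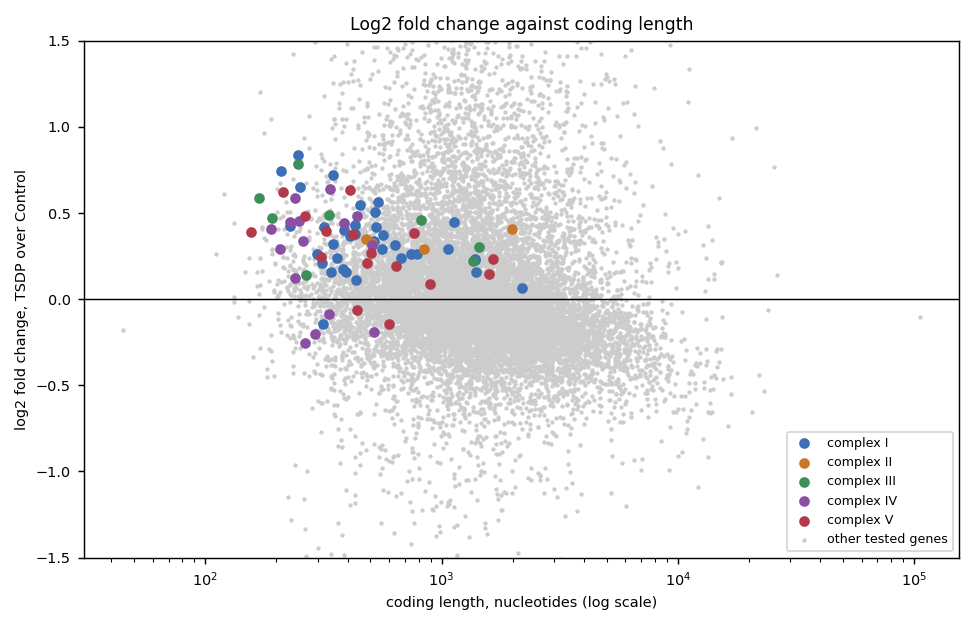
Log2 fold change (TSDP over Control, y axis) against coding length in nucleotides (x axis, log scale) for the members, coloured by complex, and for the other tested genes in grey; 893 of 14399 genes lie outside the plotted range of 1.5 either way. Without the hepatocyte covariate, members under 300 bases had a median of 0.45 and those of 1200 or more 0.23.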

How the data were processed

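Members and lists were chosen with earlier results of these data known. Per the labels' protocols, the 6 tumour libraries came from a KAPA kit for mRNA. The submitters' processing notes name featureCounts 2.0.0, HISAT2 2.1.0, Trimmomatic 0.38, FastQC, MultiQC and CASAVA. Neither genome build nor strand setting is given there, so reads of overlapping and antisense genes cannot be told apart. The table deposited by the authors holds raw read counts for 55536 genes, of which 33296 had a count, and its gene IDs are those of GENCODE M21, which supplied transcript and coding lengths. A second deposited table holds a normalised signal, the count divided by 1 constant per library, and supplied the symbols for 32159 genes.

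Counts were tested with edgeR 4.0.16 (R 4.3.3): filterByExpr (minimum count 10), TMM factors, and the legacy quasi-likelihood F test of the group term, with p adjusted by Benjamini-Hochberg over the 17423 tested genes (threshold 0.05). The biological coefficient of variation was 34.9%. CPM values use TMM-scaled library sizes, and the SE was derived from the log2 fold change and F. Steps were checked on simulated counts. Replicates are separate samples by title only, so p-values speak only of how these samples vary, which may be technical. No library was a duplicate of another: the chi-square per gene was 42.8 or more for all pairs. Genes named were, per complex, those with the smallest p, the largest and lowest log2 fold change and the highest mean CPM, then up to 30 with an unadjusted p under 0.05 and no overlap, the paralogues, and the smallest p of each list; others were chosen after their values were seen. The values of 1 member are not reported here on their own, and it is counted in the sums and lists. Alternatives were other scaling (DESeq2 size factors, upper quartile, total counts), no filter, DESeq2 1.42.0, limma 3.58.1 (voom), bias-adjusted deviances, a hepatocyte marker covariate and leaving out each library.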

Additional observations from a re-analysis of the deposited data

How the results depend on the processing

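The members called numbered 0 under every alternative run except DESeq2, which called 7 members and 620 genes in all; without the filter on low counts 1 gene was called. Members at an unadjusted p under 0.05 numbered 6 with the hepatocyte markers as a covariate and between 19 and 47 when 1 library was left out. The median of complex III was 0.29 with that covariate. The other medians, the 70 to 73 positive members and the 47 to 63 members without overlap kept within 1.5 times of the reported values. Leaving out a library can only keep or raise the number without overlap, so the 57 to 63 found then say nothing on stability. The overlap counts under other scalings and without single libraries were chosen after seeing the data. Among 67 named genes and 938 values under alternatives, 908 kept their direction and side of the threshold, 8 passed it with DESeq2 only, and 22 in 9 genes changed sign; all 9 had log2 fold changes smaller than their SE, and the cause was not tested. With the covariate, Ndufb2 was at 0.083, Cox6a2 at 0.16, Esrra at -0.080 and Atpif1 at 0.23, and with limma-voom Cox6a2 was at 0.12. Cs was at -0.059 with upper-quartile factors, -0.053 with total counts, -0.0078 without the filter and -0.00052 with limma-voom. With 1 library left out the log2 fold change ran from -0.63 to 0.065 for Cox6b2, -0.37 to 0.055 for Cox4i2, -0.68 to 0.16 for Cox6a2, -0.14 to 0.34 for Cox7a1, -0.16 to 0.0050 for Cox7a2l, -0.0049 to 0.16 for Esrra, -0.10 to 0.11 for Cs and -0.083 to 0.085 for Atpif1. A group left with 2 libraries shares its estimate of spread with the other. No paired analysis was possible because the groups share 1 replicate number only. With 3 libraries a group, and the depths given above, low-count forms such as Cox6a2 could not show differences of the size seen here.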
